A study of Mus musculus with 24 samples.

Results

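The comparison described here sets frontal cortex of mice given sarcosine together with memantine, called the combination, against frontal cortex of mice given memantine alone. It asks what sarcosine changes once memantine is present. The groups were taken from the treatment labels and hold 6 libraries each, 12 of the 24 libraries of the series, and the genes compared are the 16578 of 57180 with a normalised count of at least 10 in at least 6 of the 24 libraries. All mice were wild-type C57BL/6 males, 4 weeks old at the start and kept on a reversed light cycle. Injections were given daily into the peritoneum for 28 days, with sarcosine at 100 mg/kg plus memantine at 20 mg/kg in the combination group, and memantine at 20 mg/kg without sarcosine in the memantine group. The remaining 12 libraries, from mice given sarcosine at 100 mg/kg and mice given vehicle, share no library with this comparison and were used to set the effect of sarcosine without memantine beside it. RNA from frozen punches was sequenced in bulk, so that fewer cells of a type and less RNA per cell cannot be told apart. Nothing in the labels tells which animal gave which library, so the p-values measure only the spread between these samples, which may be technical. The library numbers run by group, so that an effect of processing order and the treatment cannot be told apart.

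Memantine blocks the open channel of the NMDA receptor, the glutamate-gated channel that also needs glycine or D-serine bound at its GluN1 subunit. Sarcosine, N-methylglycine, inhibits the glycine transporter GlyT1 and binds weakly at that same glycine site, so one drug can favour and the other block current through the receptor. Several of the genes below belong to MHC class I presentation, in which peptides cut by the proteasome are pumped into the endoplasmic reticulum by the TAP transporter and loaded onto class I heavy chains paired with beta-2 microglobulin. Brain cells express this pathway at a low level and raise it with interferon. Promoters of classical class I genes carry a conserved module, bound by RFX, CREB/ATF and NF-Y proteins together with the activator NLRC5, whose X2 and Y boxes hold the letters TGACG and CCAAT on one or other strand.

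The following promoter stretches are shown because 5 of the genes whose values stood apart lie in the MHC region and because chaperones of the endoplasmic reticulum, described further on, had the opposite sign. Each is the 130 bases before the annotated start of the gene in RefSeq (build GRCm38.p6), written 5′ to 3′ on the strand of the gene. Capitals mark TGACG or CCAAT on either strand in the first 5, the interferon-stimulated response element in Tgtp2, searched as GAAA followed after 2 free bases by another GAAA, and the endoplasmic reticulum stress element in Hspa5 and Pdia6, searched as CCAAT followed after 9 free bases by CCACG and so holding a CCAAT itself. Both strands were searched for every motif.
H2-Q4 (chr17:35379487-35379616, plus strand): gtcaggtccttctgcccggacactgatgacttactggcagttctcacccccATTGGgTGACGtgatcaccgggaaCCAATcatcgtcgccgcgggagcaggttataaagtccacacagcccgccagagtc
H2-Q6 (chr17:35424720-35424849, plus strand): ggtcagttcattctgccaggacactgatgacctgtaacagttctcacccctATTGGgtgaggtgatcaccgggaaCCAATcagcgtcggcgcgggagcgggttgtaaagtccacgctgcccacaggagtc
H2-Q7 (chr17:35439025-35439154, plus strand): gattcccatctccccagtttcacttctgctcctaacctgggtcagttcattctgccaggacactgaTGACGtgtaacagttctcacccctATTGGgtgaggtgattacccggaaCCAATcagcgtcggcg
H2-K1 (chr17:34000348-34000477, minus strand): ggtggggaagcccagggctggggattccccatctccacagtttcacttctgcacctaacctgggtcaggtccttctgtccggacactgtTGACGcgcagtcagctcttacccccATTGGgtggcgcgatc
Tap1 (chr17:34187426-34187555, plus strand): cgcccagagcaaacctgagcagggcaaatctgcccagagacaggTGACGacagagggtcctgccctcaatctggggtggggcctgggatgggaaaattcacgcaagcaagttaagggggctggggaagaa
Tgtp2 (chr11:49064213-49064342, minus strand): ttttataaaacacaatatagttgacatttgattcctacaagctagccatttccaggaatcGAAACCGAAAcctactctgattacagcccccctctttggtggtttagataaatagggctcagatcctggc
Hspa5 (chr2:34771960-34772089, plus strand): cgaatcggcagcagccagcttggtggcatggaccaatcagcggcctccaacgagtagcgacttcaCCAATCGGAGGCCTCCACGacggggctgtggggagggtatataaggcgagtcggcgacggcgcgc
Pdia6 (chr12:17266459-17266588, plus strand): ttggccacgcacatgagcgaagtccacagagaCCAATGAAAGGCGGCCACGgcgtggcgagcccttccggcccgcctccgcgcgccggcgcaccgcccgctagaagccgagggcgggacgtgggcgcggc

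In H2-Q4 the TGACG began 73 bases before the start, between a reversed CCAAT at 79 and a forward one at 55. It thus followed the reversed CCAAT, whereas in H2-Q7 and H2-K1 the TGACG preceded the reversed CCAAT. Whether the TGACG of H2-Q4 is an X2 box was not tested. The same pair of CCAAT letters stood at 79 and 55 in H2-Q6 and at 40 and 16 in H2-Q7, with a TGACG at 64 in H2-Q7 and none in the window of H2-Q6. Over 250 bases before the start, 4 of the 8 called genes with a promoter in the table held TGACG and 4 of 8 held CCAAT, against 25.7% and 35.9% of the 12137 tested genes with a promoter. The interferon-stimulated response element stood in 17 of 29 interferon-induced genes with a promoter, 58.6%, against 2.55% of all. The endoplasmic reticulum stress element stood in 5 of 24 heat shock and unfolded protein response genes, 20.8%, against 0.157% of all. The heat shock element (GAA, TTC and GAA with 2 free bases between) stood in 4.17% of heat shock genes and 0.313% of all. No promoter among the called genes held the E-box CACGTG, the D-box TTATGTAA, the full cAMP response element TGACGTCA, which contains TGACG, or the steroid receptor element (GNACA and TGTNC with 3 free bases between), against 8.17%, 0.56%, 2.61% and 0.255% of all. These are matches of letters, counted without a test.

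Depth overlapped between the groups. The reads recovered from the normalised counts numbered 14700861 to 15653093 per library with the combination and 12678114 to 19714592 with memantine. Markers of neighbouring tissue marked single libraries. Transthyretin (Ttr, choroid plexus) had 33153 normalised counts in combination replicate 1, and 1131 and 52720 in memantine replicates 2 and 3, against at most 45.2 in the other 9 libraries. Cdhr1 of the olfactory bulb had 3464 and 2310 in combination replicates 5 and 6, and 2781 and 2891 in memantine replicates 4 and 5, against at most 728 in the others. Of 20 striatal markers measured, 20 had a higher value with the combination, with a median log2 fold change of 0.55 and none called, and their summed level was 10617 to 29414 normalised counts with the combination and 11437 to 23142 with memantine. The part of such tissue in the results was not tested. Some, not all, of the counts below are therefore also given without these libraries.

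Of the class I genes, 3 heavy chain genes and 1 subunit gene of the peptide transporter were higher when sarcosine was added to memantine. By limma, 9 of 16578 genes were called at a Benjamini-Hochberg adjusted p under 0.05, 0.0543% of those tested, all 9 of them higher and 0 lower with the combination (at an unadjusted p under 0.05 there were 1280, 7.72%, of which 653 were higher and 627 lower, 3.94% and 3.78%). The class I heavy chain genes H2-Q4, H2-Q6 and H2-Q7, the transporter subunit Tap1 and the interferon-induced GTPases Gbp4 and Tgtp2 made up 6 of the 9. The others were the ceramidase gene Acer2, the signalling protein gene Plek and the noncoding RNA 1700096K18Rik. In all 9 the lowest combination library lay above the highest memantine library, as it did in 60 of all tested genes, 0.362%. H2-Q6, H2-Q7, Tgtp2 and 1700096K18Rik lie under the mean of 50 normalised counts, or among the unnamed transcripts, that the rule for naming genes leaves out, and are given, chosen after their values were seen, because few genes were called. Without the libraries high in Ttr 7 genes were called, 6 higher and 1 lower, of which 4 are among the 9, and without those high in Cdhr1 7 were, 2 higher and 5 lower, of which 1 is. Without those high in Cdhr1 H2-Q6 was at 1.65 and Acer2 at 1.33, both with an adjusted p of 0.0525. In a fit of the 12 libraries alone H2-Q4, H2-Q6 and Acer2 kept their call, while H2-Q7 (adjusted p = 0.0589) and the other 5 lost it. H2-Q6, H2-Q7 and Acer2 were called whichever single library was left out, with fold changes of 1.72 to 1.91, 2.02 to 2.55 and 1.24 to 1.45. H2-Q4 (1.12 to 1.36), Tap1 (0.93 to 1.18), Gbp4 (1.36 to 1.65), Tgtp2 (1.19 to 1.45), Plek (0.38 to 0.45) and 1700096K18Rik (0.71 to 0.85) all lost their call without combination replicate 1 or 5 or memantine replicate 1 or 2, and each without some further libraries. With combination replicate 5 or memantine replicate 1 or 2 left out, 3 genes were called in all, and with memantine replicate 4, 5 or 6 left out 4 were.

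H2-Q7, a nonclassical class I heavy chain of the Qa-2 family, had 30.9, 40.6 and 55.3 normalised counts (lowest, median and highest of 6) with the combination and 2.01, 7.70 and 17.9 with memantine. Memantine replicate 5 was the lowest library and memantine replicate 6 the highest of its group, still below every combination library. The fold change, given throughout as log2(value + 1) of combination minus memantine, was 2.32 (SE 0.33, limma adjusted p = 0.00215). H2-Q6, from the same family, had 26.7, 30.9 and 44.3 normalised counts with the combination and 6.03, 8.31 and 12.3 with memantine (fold change 1.81, SE 0.24, adjusted p = 0.00145). Combination replicates 1 and 6 were highest, and the lowest combination library was still above the highest memantine one. H2-Q4 had 189, 219.6 and 359.7 normalised counts with the combination and 72.1, 94.4 and 139.5 with memantine (fold change 1.25, SE 0.23, adjusted p = 0.0367). Combination replicate 1, which also carried the choroid plexus marker, stood alone above the other combination libraries, and memantine replicate 3 was the highest of its group. Without the libraries high in Ttr the fold change of H2-Q4 was 1.15 (adjusted p = 0.131) and it was no longer called. The Qa genes are near-identical copies next to each other on chromosome 17, so how the reads were shared among them is uncertain.

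**Figure D1:**
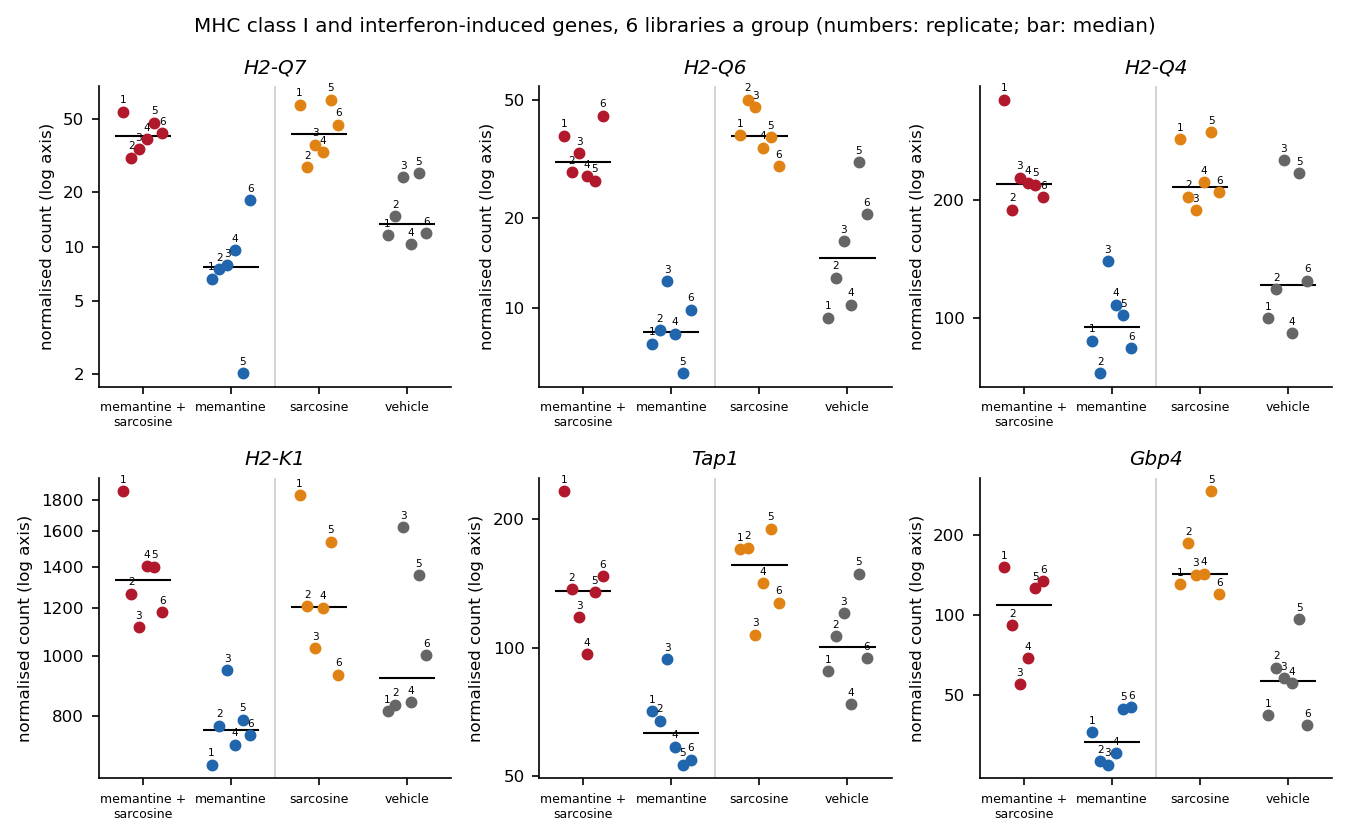
Normalised counts (log axis) of 6 genes of class I presentation and interferon response in each library, with memantine plus sarcosine, memantine, sarcosine and vehicle from left to right; numbers are replicates and bars are medians. In all 6 genes the combination libraries lie above all memantine libraries, while the ranges of sarcosine and vehicle touch or overlap in H2-Q6, H2-Q4, H2-K1 and Tap1.

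The classical class I genes had smaller differences. H2-K1, the classical heavy chain K, had 1117, 1334 and 1860.3 normalised counts with the combination and 666, 757 and 950.3 with memantine, groups that did not overlap (fold change 0.81, adjusted p = 0.0729). H2-D1 (0.73, adjusted p = 0.259) and the light chain B2m (0.46, adjusted p = 0.379) overlapped between groups, though every combination library lay above the memantine mean. H2-Q5 was at 12.6 to 30.9 normalised counts with the combination and 1.87 to 8.97 with memantine (1.82, adjusted p = 0.0624), close to the lowest level tested. No memantine library of H2-Q5 reached the filter minimum of 10, and every combination library did. The combination libraries alone were enough for H2-Q5 to pass the filter, so its separation is weak support. None of these 4 genes was called, and H2-Q5, H2-D1 and B2m were picked out after their values were seen. DESeq2 on the recovered reads called H2-K1 and H2-Q5 as well.

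Tap1, the subunit of the peptide pump, averaged 144 ± 46.5 normalised counts with the combination and 66.5 ± 15.1 with memantine (SD, n = 6 each), a fold change of 1.08 (SE 0.19, limma adjusted p = 0.0367). Its libraries spanned 96.6 to 232 with the combination, the top value again in replicate 1, and 53.3 to 93.9 with memantine. Nlrc5, the activator of class I promoters, had 53.5, 61.2 and 69.3 normalised counts with the combination and 12.3, 24.8 and 63.2 with memantine (1.26, adjusted p = 0.149). A single memantine library, replicate 3, fell within the combination range of Nlrc5. The other transporter subunit, Tap2, had 93.7, 126 and 179.8 with the combination and 95.1, 106 and 141 with memantine (0.20, adjusted p = 0.929). Its groups overlapped, as did those of the immunoproteasome subunit Psmb9 (0.53, adjusted p = 0.625).

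Gbp4, a guanylate-binding protein that interferon induces, had 54.8, 109 and 152 normalised counts with the combination and 27.2, 33.0 and 44.9 with memantine (fold change 1.49, SE 0.26, limma adjusted p = 0.0314). Combination replicates 3 and 4 were the lowest of their group and lay nearest the memantine libraries. Tgtp2, a GTPase of the immunity-related family, had 20.6, 32.9 and 48.6 normalised counts with the combination and 8.97, 10.8 and 20.5 with memantine (1.31, SE 0.25, adjusted p = 0.0474), so that the groups almost touched. Both have close copies, and their counts are uncertain for that reason. Of 38 interferon-induced genes in the list, 2 were called higher (Gbp4 and Tap1) and 0 lower, against 0.0543% of all genes. Another 15 had an unadjusted p under 0.05 and a higher value, 17 in all against 3.94% of all genes, and 0 had one with a lower value. The list's median fold change was 0.46, with 35 of 38 positive, against -0.005 and 48.7% over all tested genes. Groups did not overlap for 4 members, Gbp4, Tap1, H2-K1 and the GTPase Iigp1 (1.36, adjusted p = 0.102). The 3 negative members were Ifit3b at -0.22, the ubiquitin-like modifier gene Isg15 at -0.03 and the chemokine gene Cxcl10 at -0.02, none of them called. Leaving out combination replicate 1 reduced the members at an unadjusted p under 0.05 to 11 and the median to 0.36, and leaving out the libraries high in Cdhr1 reduced them to 9, with a median of 0.44. Without the libraries high in Ttr there were 12, with a median of 0.39.

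Markers of cells that could bring such transcripts are given beside these values. The T cell gene Cd3e was at 1.14 to 4.11 normalised counts with the combination and 0 to 3.59 with memantine. Ptprc, the common leukocyte antigen, which microglia also express, was at 68.5 to 93.2 with the combination and 46.4 to 87.9 with memantine. All 7 blood genes measured had positive values, against 48.7% of all genes (median 0.46, 0 called). Of them 1 was higher at an unadjusted p under 0.05, against 3.94% of all genes. The summed level of blood genes was 473 to 1949 normalised counts with the combination and 596 to 1229 with memantine. The summed microglial markers were 10843 to 12612 with the combination and 10229.5 to 12161 with memantine, and those of endothelial cells and pericytes 10623 to 12917 with the combination and 10237 to 13519.5 with memantine. The part of these cells in the result was not tested.

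Acer2, which encodes an alkaline ceramidase of the Golgi that splits ceramide into sphingosine and a fatty acid, had the firmest call outside the MHC. It had 179, 298 and 371 normalised counts with the combination and 104, 110.1 and 135 with memantine. Combination replicate 1 was the lowest of its group and memantine replicate 3 the highest of the other, and the groups were apart. The fold change was 1.32 (SE 0.19, limma adjusted p = 0.00215). Plek, which encodes pleckstrin, a protein kinase C substrate of blood and myeloid cells, differed less but with little spread. Its values were 273, 314 and 340.1 with the combination and 208, 230.3 and 239 with memantine (fold change 0.42, SE 0.077, adjusted p = 0.0382). The noncoding 1700096K18Rik was at 27.4 to 42.3 normalised counts with the combination and 15.3 to 21.9 with memantine (0.78, SE 0.15, adjusted p = 0.0427).

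**Figure D2:**
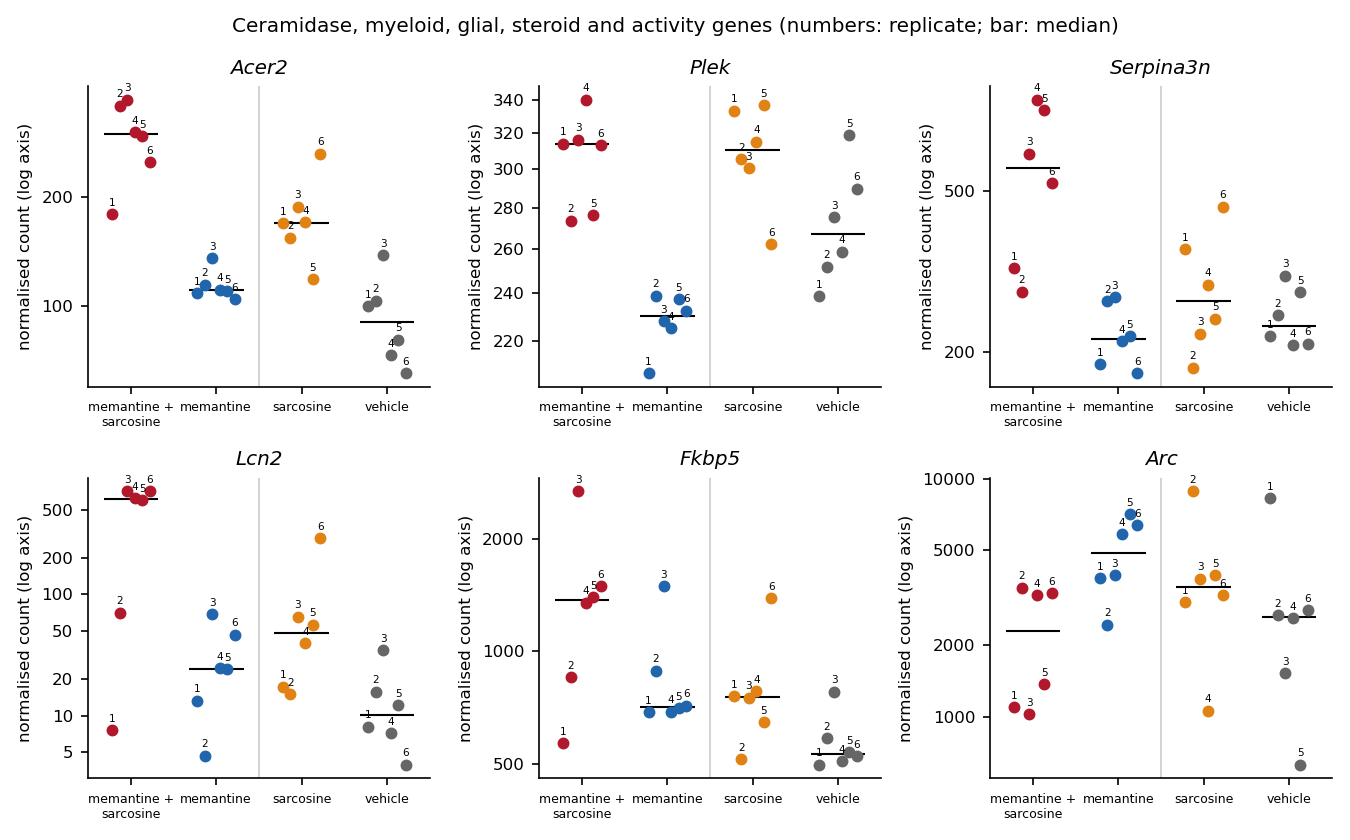
Normalised counts (log axis) of Acer2, Plek, the reactive glia genes Serpina3n and Lcn2, the glucocorticoid-responsive Fkbp5 and the activity-regulated Arc in each library, with memantine plus sarcosine, memantine, sarcosine and vehicle from left to right; numbers are replicates and bars are medians. Acer2, Plek and Serpina3n separate the combination from memantine completely, whereas Lcn2 is high in combination replicates 3 to 6 only, at 601.6 to 711 normalised counts.

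Several glial and steroid-responsive genes were high in some combination libraries and not in others. Serpina3n, a secreted protease inhibitor of reactive astrocytes, had 282, 569 and 837 normalised counts with the combination and 178, 216 and 274 with memantine (fold change 1.23, SE 0.24, limma adjusted p = 0.0575), without overlap and just short of the call. edgeR on the recovered reads called it at an adjusted p of 0.0336, and DESeq2 called both it and Lcn2. Lcn2, the siderophore-binding lipocalin 2, had 7.58, 610.1 and 711 with the combination and 4.68, 24.4 and 68.4 with memantine, the widest difference of these genes at 3.23 but with an SE of 0.93 (adjusted p = 0.295). Combination replicates 1 and 2, at 7.58 and 70.6, lay within or next to the memantine range, and the other 4 lay far above it. The oncostatin M receptor Osmr (0.99), the cytokine-signalling suppressor Socs3 (1.12), the metalloreductase Steap4 (1.66) and the lipopolysaccharide co-receptor Cd14 (0.90) also had an unadjusted p under 0.05 and none was called. Of 21 reactive glia genes, 6 were higher and 1, the small heat shock protein Hspb1 (-0.86, adjusted p = 0.323), lower at that threshold, against 3.94% and 3.78% of all genes. Of the 21, 16 were positive, against 48.7% of all genes, and the list's median was 0.25. Without the libraries high in Cdhr1 1 was higher and 1 lower at that threshold, and without those high in Ttr 8 were higher and 1 lower. Astrocyte markers were mostly negative: 2 of 15 were positive, 0 were called, 2 were lower at that threshold and the median was -0.12. Their summed level was 70504 to 79417 normalised counts with the combination and 72208 to 90018 with memantine, and its part in these values was not tested.

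Fkbp5, a co-chaperone of the glucocorticoid receptor that steroids induce, had 568, 1373 and 2679.9 normalised counts with the combination and 689, 711 and 1493 with memantine (0.59, adjusted p = 0.632). Combination replicate 3 was the highest library, as it was for the steroid-induced kinase Map3k6 (0.75, adjusted p = 0.662) and for Nfkbia, an inhibitor of NF-kappa-B (0.47, adjusted p = 0.751), and memantine replicate 3 stood above the others of its group. In the list of 20 glucocorticoid-responsive genes 0 were called. At an unadjusted p under 0.05, 2 were higher (Lcn2 and Fkbp5), against 3.94% of all genes. Of the 20, 16 were positive, against 48.7% of all genes, and the list's median was 0.23. Without the libraries high in Ttr, which include memantine replicate 3, the median was 0.68 with 14 of 20 at that threshold. Without those high in Cdhr1 the median was 0.17 with 0 at that threshold, and without any single library it was 0.15 to 0.48.

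Chaperones had the opposite sign. Of 29 genes of the heat shock and unfolded protein responses, 0 were called, while 19 had an unadjusted p under 0.05 and a lower value with the combination, against 3.78% of all genes, and 29 of 29 were negative, against 51.3% of all genes. The list's median was -0.27. Leaving out any single library left 17 to 22 members lower at that threshold. Groups did not overlap for 1 member, the co-chaperone Dnaja1 (-0.23, adjusted p = 0.201), and 28 of all tested genes, 0.169%, were lower without overlap.

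Hspa1a, the inducible cytosolic HSP70, had 66.1, 90.4 and 151 normalised counts with the combination and 148, 152 and 246 with memantine (fold change -0.80, SE 0.16, limma adjusted p = 0.0593). Combination replicate 6, at 151, was the only library of its group in the memantine range. Its neighbour and near copy Hspa1b, with which it may share reads, had 99.7, 174 and 432 with the combination and 303, 387 and 535 with memantine (-1.03, adjusted p = 0.149), again with combination replicate 6 on top. Stip1, the adaptor between HSP70 and HSP90, averaged 3412 ± 360.4 with the combination and 4255 ± 284 with memantine (SD, n = 6 each; -0.32, adjusted p = 0.0729). The HSP90 co-chaperone Chordc1 was at -0.56 (adjusted p = 0.145).

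In the endoplasmic reticulum, the chaperone Hspa5 (BiP), whose promoter letters are shown above, had 4287, 4906 and 9079 normalised counts with the combination and 5986, 7555 and 9485 with memantine (-0.49, adjusted p = 0.276). Its combination replicate 6 was at 9079 and the other 5 were at 4287 to 5475, all below the lowest memantine library. The disulfide isomerases Pdia6 (-0.40, adjusted p = 0.145), Pdia4 (-0.60, adjusted p = 0.154) and Pdia3 (-0.32, adjusted p = 0.149) and the secreted stress factor Manf (-0.51, adjusted p = 0.163) were also highest in that library within the combination group. Without combination replicate 6, 51 genes were called over all genes, 23 higher and 28 lower. Among those lower were Hspa1a (-0.93, limma adjusted p = 0.00440), Hspa1b (-1.27), Hspa5 (-0.64), Pdia6 (-0.49), Pdia4 (-0.72), Manf (-0.64) and the unfolded protein response factor Xbp1 (-0.50). That library had the highest values of its group for these chaperones, so the calls follow in part from leaving it out and are no further support. Without combination replicate 1, 1 gene was called lower, and every other single omission called 0 lower. Why combination replicate 6 differed was not tested. DESeq2 on the recovered reads of all libraries called 39 genes higher and 22 lower, among them Hspa1a, Stip1, Chordc1, Dnaja1, Pdia3, Pdia4 and Pdia6 as lower.

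**Figure D3:**
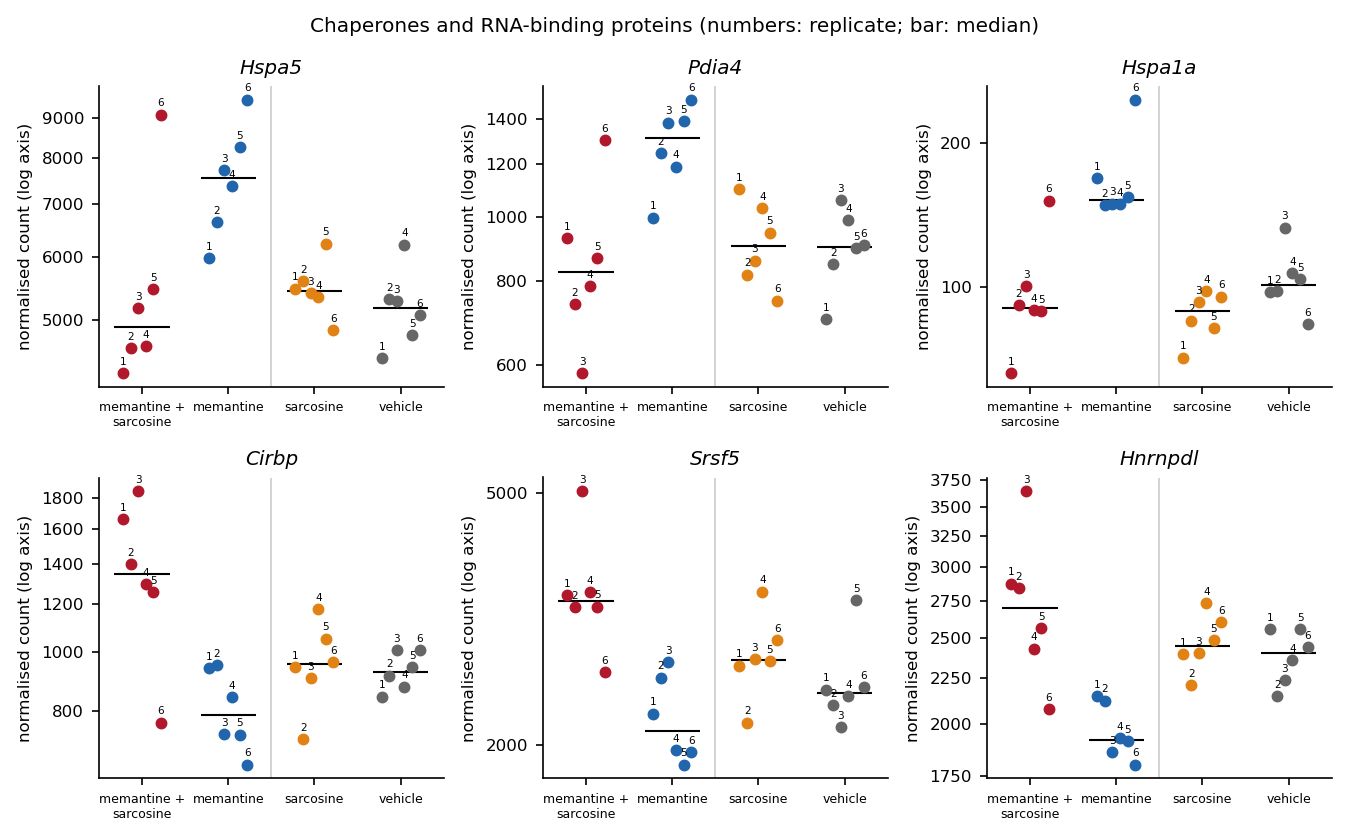
Normalised counts (log axis) of the chaperones Hspa5, Pdia4 and Hspa1a and of the RNA-binding protein genes Cirbp, Srsf5 and Hnrnpdl in each library, with memantine plus sarcosine, memantine, sarcosine and vehicle from left to right; numbers are replicates and bars are medians. Combination replicate 6 lies among the memantine libraries in each panel, and the other 5 combination libraries lie below memantine for the chaperones, and above it for Cirbp, Hnrnpdl and Srsf5.

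Some RNA-binding protein genes had higher values with the combination, with the same library apart. Cirbp, the cold-inducible RNA-binding protein, had 765, 1348 and 1848 normalised counts with the combination and 652, 787 and 953 with memantine (0.72, SE 0.15, limma adjusted p = 0.0729), with combination replicate 6 at 765. Its relative Rbm3 was at 0.39 (adjusted p = 0.421). Srsf5, a serine- and arginine-rich splicing factor, had 2604, 3377 and 5031 with the combination and 1860.1, 2101 and 2698 with memantine (0.66, adjusted p = 0.0722), and replicate 6 was again the lowest combination library. Hnrnpdl, a heterogeneous nuclear ribonucleoprotein, averaged 2737 ± 532 with the combination and 1963 ± 142 with memantine (SD, n = 6 each; 0.46, adjusted p = 0.0624). Without combination replicate 6, Cirbp (0.88, limma adjusted p = 0.00410), Hnrnpdl (0.54) and Srsf5 (0.74) were called. As the library left out was among the memantine values for these genes, the calls are no further support. Of 35 splicing regulators as a list, 2 were higher (Srsf5 and Srrm1) and 3 lower at an unadjusted p under 0.05, against 3.94% and 3.78% of all genes. The list's median was -0.025.

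The remaining lower genes nearest to the threshold came from several pathways. P4ha1, a subunit of the prolyl hydroxylase of collagen, had 642, 1049 and 1366 normalised counts with the combination and 1323, 1547 and 2026 with memantine (-0.67, SE 0.14, limma adjusted p = 0.0624). The microtubule-assembly protein gene Dpysl2 was at -0.34 (adjusted p = 0.121) and the nuclear RNA-binding protein gene Sfpq at -0.35 (adjusted p = 0.129). Tmem185a (-0.28, adjusted p = 0.129) and the acetyltransferase gene Naa50 (-0.21, adjusted p = 0.136) had small differences without overlap. Gkn3, picked out after its values were seen, had 4.41, 7.86 and 40.1 with the combination and 20.6, 31.6 and 55.3 with memantine (-1.71, adjusted p = 0.0722), and its only combination library inside the memantine range was replicate 1.

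Cholesterol synthesis genes were mostly lower. Sc5d, the sterol C5-desaturase near the end of the pathway, had 1124, 1248 and 1288 normalised counts with the combination and 1319, 1431 and 1518 with memantine, groups that were apart (-0.23, SE 0.048, limma adjusted p = 0.0729). Cyp51, the lanosterol demethylase, was at 1153 to 1291 with the combination and 1312 to 1629 with memantine, also apart (-0.27, adjusted p = 0.295). The methylsterol monooxygenase Msmo1 (-0.29, adjusted p = 0.238) and the decarboxylase of mevalonate diphosphate Mvd (-0.35, adjusted p = 0.295) overlapped. Of 23 genes 0 were called, and 10 had an unadjusted p under 0.05 and a lower value, against 3.78% of all genes. Of the 23, 18 were negative, against 51.3% of all genes, and the list's median was -0.17. Without the libraries high in Cdhr1 7 were lower and 1 higher at that threshold, and without those high in Ttr 8 were lower. In the libraries with sarcosine but no memantine, 8 of these 23 were called lower against vehicle, where 4.62% of all genes were, with a median of -0.21.

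Immediate early genes, which neurons transcribe within minutes of activity, had low values in some combination libraries. Egr1, a zinc finger factor of this class, had 2177, 3749 and 7435 normalised counts with the combination and 4252, 7693 and 11097 with memantine (-0.98, SE 0.33, limma adjusted p = 0.398). Combination replicates 1, 3 and 5 were lowest, and replicates 2, 4 and 6 lay among the memantine libraries. Arc, the synaptic capsid-like protein gene, had 1025, 2298 and 3477 with the combination and 2429, 4881 and 7093 with memantine (-1.23, adjusted p = 0.511), with the same 3 libraries lowest. Egr4 (-0.71, adjusted p = 0.421) and Nr4a3 (-0.85, adjusted p = 0.472) were likewise not called. Of 30 such genes 0 were called, and 7 had an unadjusted p under 0.05 and a lower value, against 3.78% of all genes. Of the 30, 28 were negative, against 51.3% of all genes, and the list's median was -0.52. Without combination replicate 1 the median was -0.33 and 2 genes passed that threshold, and without the libraries high in Cdhr1 0 did. With those high in Ttr left out, 11 did. Without combination replicate 3 or memantine replicate 5 there were 4 and 3, and without memantine replicate 2 there were 13.

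**Figure D4:**
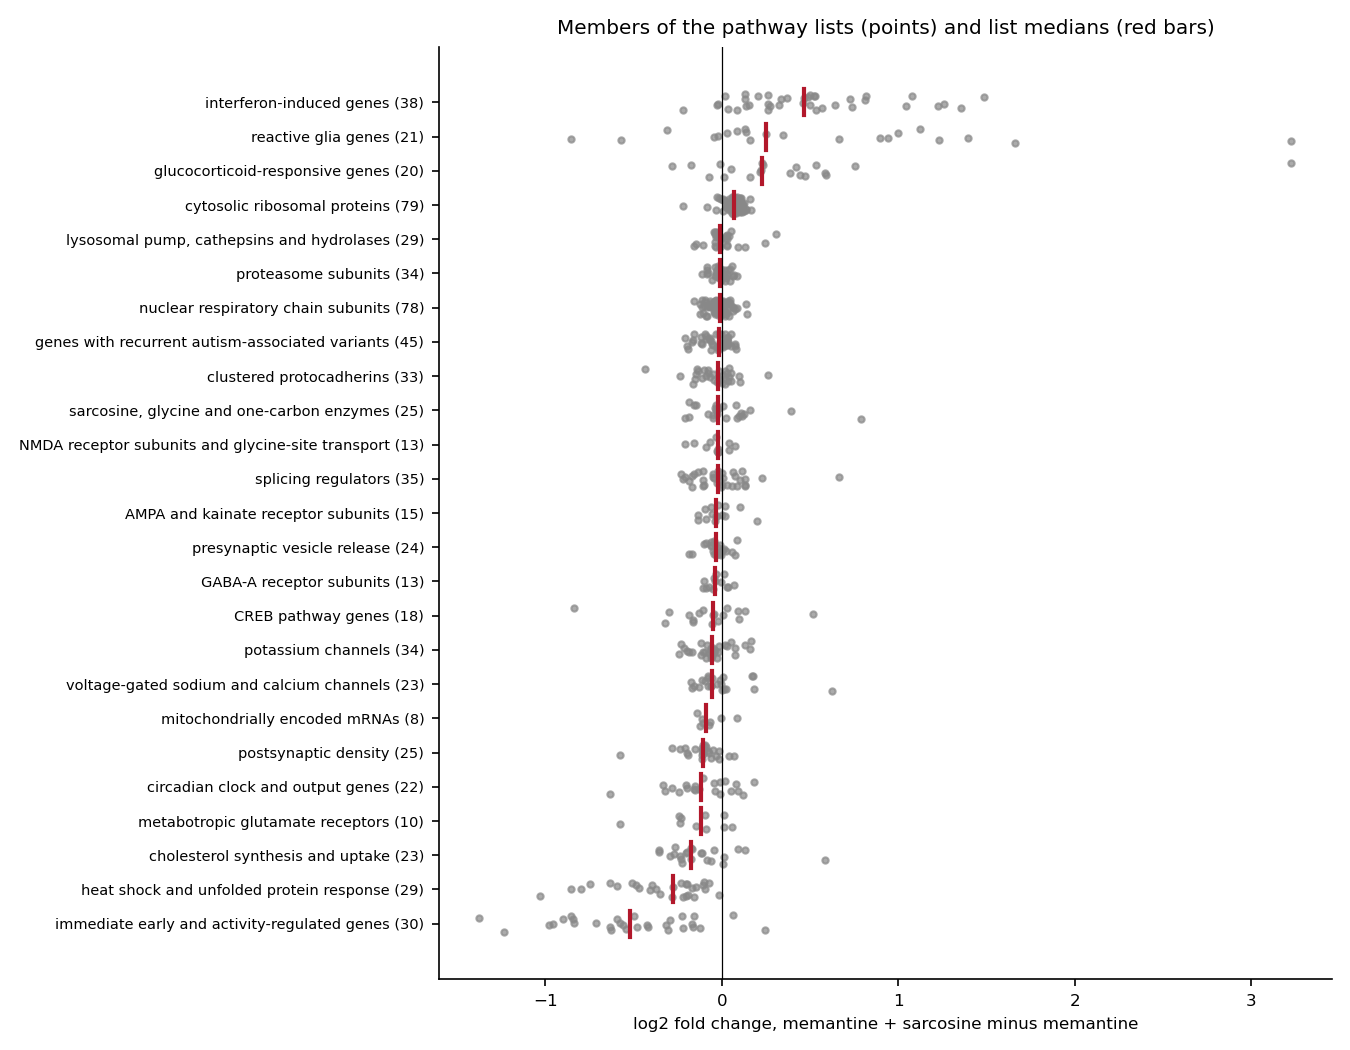
Log2 fold changes of combination minus memantine (x axis) for the tested members of 25 pathway lists (rows, members tested in brackets), with list medians as red bars. Interferon-induced genes lie highest with a median of 0.46, chaperones at -0.27 and immediate early genes at -0.52 lie lowest, and most other medians lie near 0.

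Genes of the drugs' own targets and of sarcosine metabolism had small fold changes. Grin1, the obligatory NMDA receptor subunit, had 4604, 5719.9 and 6039.8 normalised counts with the combination and 4757, 5918 and 6071 with memantine (-0.02, SE 0.11, adjusted p = 0.997). Grin2a was at -0.09, Grin2b at -0.21 and Slc6a9, which encodes GlyT1, at -0.06, each with overlapping groups. Sarcosine dehydrogenase, Sardh, had 164, 182 and 205 with the combination and 184, 197 and 266 with memantine (-0.19, adjusted p = 0.619). It was the 1 member of 25 sarcosine, glycine and one-carbon genes at an unadjusted p under 0.05, where 3.78% of all genes were lower and 3.94% higher. The sarcosine oxidase Pipox was at 0.79 (SE 0.51) and glycine N-methyltransferase, Gnmt, at 0.11 (SE 0.49), and neither was called. Of 13 NMDA receptor and glycine-site genes 0 had an unadjusted p under 0.05, with a median of -0.025.

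The other pathway lists had no called member. Medians were -0.032 for AMPA and kainate receptors, -0.12 for metabotropic glutamate receptors, -0.038 for GABA-A receptors, -0.033 for presynaptic release, -0.11 for the postsynaptic density, -0.057 for potassium channels, -0.059 for sodium and calcium channels and -0.051 for CREB pathway genes. For proteasome subunits the median was -0.014, for lysosomal genes -0.0096, for mitochondrially encoded mRNAs -0.090 and for clustered protocadherins -0.021. At an unadjusted p under 0.05, the postsynaptic density list had 3 lower genes, the lysosomal list had 2 higher ones and the other 10 lists had none. Over all genes 3.78% were lower and 3.94% higher at that threshold.

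Sarcosine was also given without memantine, in libraries that share none with this comparison, and the values of both contrasts can be set side by side. Of the 9 genes called with the combination, 5 were called higher with sarcosine against vehicle as well, where 4.72% of all genes were called higher, and 8 were positive, as were 49.5% of all genes. These 5 were Gbp4 (limma adjusted p = 0.00153), H2-Q7 (adjusted p = 0.00799), Tgtp2 (1.40), H2-Q6 (1.29) and Acer2 (0.92, adjusted p = 0.00391). H2-Q4 (0.70, adjusted p = 0.0521), Tap1 (0.53, adjusted p = 0.0935) and Plek (0.18, adjusted p = 0.144) were positive and not called, and 1700096K18Rik was at -0.29. H2-Q7 had 30.9 to 55.3 normalised counts with the combination and 27.4 to 64.2 with sarcosine, against 2.01 to 17.9 with memantine and 10.3 to 25.3 with vehicle. Memantine against vehicle shares the memantine libraries with this comparison. In it H2-Q7 was at -0.96 (adjusted p = 0.167) and the interferon-induced list at a median of -0.33, beside 0.46 for combination minus memantine and 0.18 for sarcosine minus vehicle. The heat shock list had 0.20, beside -0.27 and -0.089 in the same order. Of the 9 genes, Acer2 was positive in memantine minus vehicle (0.32) and the others were negative, none of them called. Among those negative were 1700096K18Rik (-0.83, limma adjusted p = 0.0507), Tap1 (-0.65) and Plek (-0.25). The noncoding 1700096K18Rik averaged 35.3 normalised counts with the combination, 19.9 with memantine and 36.4 with vehicle.

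Genes that sarcosine changed against vehicle mostly had small differences between combination and memantine. Sarcosine minus vehicle called 1548 genes, 9.34%, of which 782 were higher and 766 lower. Of the 782 higher genes, 5 were called in combination minus memantine and 289 were positive there (37.0%), with a median of -0.029. Of the 766 lower genes 0 were called, 309 were positive (40.3%) and the median was -0.020. Over all 16578 genes the fold changes of both contrasts correlated at r = 0.081, a description across genes, which are not independent. Sarcosine minus vehicle called 64 of 79 ribosomal protein genes lower (median -0.34). In combination minus memantine 73 of 79 had positive values, against 48.7% of all genes, with a list median of 0.067. There 0 were called and 3 were higher at an unadjusted p under 0.05, against 3.94% of all genes. Without the libraries high in Cdhr1 9 were higher and 1 lower at that threshold, with a median of 0.16. For 78 nuclear respiratory chain subunits the medians were -0.014 with memantine present and -0.30 without, with 0 and 48 called lower. For 45 genes with recurrent autism-associated variants they were -0.017 and 0.25, with 0 and 18 called higher. Median transcript lengths were 1094, 1093.5 and 7417 bases for the ribosomal, respiratory and autism-associated lists, against 3281 for all tested genes. The slope on length also differed between sarcosine and vehicle libraries, as given further on. The part of transcript length in the sarcosine minus vehicle values was not tested.

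**Figure D5:**
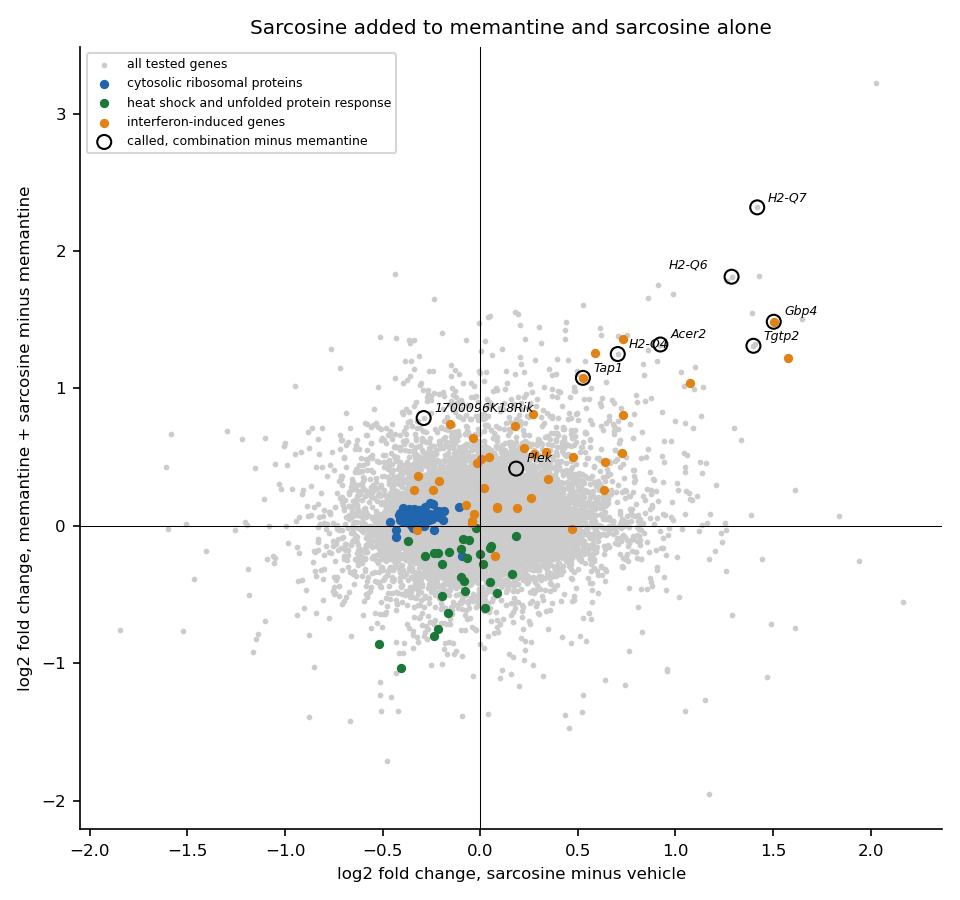
Log2 fold change of combination minus memantine (y axis) against that of sarcosine minus vehicle (x axis) for all 16578 tested genes, with ribosomal protein, heat shock and interferon-induced lists coloured and the 9 called genes circled. Most ribosomal genes lie left of 0 on the x axis and near 0 on the y axis, heat shock genes lie below 0 on the y axis, and 8 of the 9 called genes lie at the upper right.

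The interaction subtracts the sarcosine minus vehicle difference from that of combination minus memantine and tests whether the effect of sarcosine differed with memantine. It called 301 genes (1.82%), 96 higher (0.579%) and 205 lower (1.24%), and 2782 had an unadjusted p under 0.05 (16.8%). Upper-quartile scaling turned that split to 343 higher and 132 lower. Among the called genes, none of H2-Q4, H2-Q6, H2-Q7, Tap1, Gbp4, Tgtp2, Acer2 or Plek had a called interaction (for H2-Q7 it was 0.90, adjusted p = 0.337), and 1700096K18Rik did (1.07, limma adjusted p = 0.0261). The clock gene Per2 had 445, 660.3 and 888 normalised counts with the combination and 763, 1064 and 1192 with memantine, against 538, 784 and 1053 with sarcosine and 411, 467 and 738 with vehicle (interaction -1.19, adjusted p = 0.0322). Nr1d2, which encodes REV-ERB beta (-0.48, adjusted p = 0.0275), and Per3 (-0.58, adjusted p = 0.0473) were also called. Of 22 clock genes, 2 were lower at an unadjusted p under 0.05 in combination minus memantine, against 3.78% of all genes. The list's median there was -0.12. Cry1 was at -0.16 there, and no time of collection was given.

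Of 17 microglial markers, 4 had a called interaction, all 4 higher, against 0.579% of all genes, and 13 did not. Trem2, a lipid receptor of microglia, had 206, 283 and 348 normalised counts with the combination and 218, 236 and 240.3 with memantine, against 229, 249 and 299.5 with sarcosine and 259, 335 and 364 with vehicle (interaction 0.63, limma adjusted p = 0.0358). The complement genes C1qa (0.52), C1qb (0.47) and C1qc (0.43) were the other 3, and Tmem119 was at -0.07. The Fc receptor chain gene Fcer1g (0.60) was called too. In combination minus memantine itself 0 of 17 microglial markers were called, 5 were higher (among them the protease Ctss at 0.31) and 2 lower (among them Tmem119 at -0.28) at an unadjusted p under 0.05, and the median was 0.063. Over all genes 3.94% were higher and 3.78% lower at that threshold. Interaction calls were also made for the kinase Sik2 (-1.23), the transcription factor Klf12 (-1.09), Aff2 (-1.09), the scaffold Shank3 (-0.60), the methyltransferase Kmt2c (-0.57), the ribosomal protein genes Rpl10a (0.42), Rps7 (0.42) and Rpl22 (0.40), the complex III assembly factor gene Uqcc3 (0.65), Znhit2 (0.73) and the histone-fold gene Chrac1 (0.63).

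The interaction ran with transcript length. Across 16287 genes with a length it correlated with log10 length at r = -0.398, while combination minus memantine itself did at r = -0.0945. A slope on log10 length was fitted to each library's log2 deviations from the mean of all 24 libraries, so its sign is relative to that mean. The slope was -0.018 ± 0.18 with the combination and 0.064 ± 0.070 with memantine (SD, n = 6 each), a difference of -0.082 (exact two-sided permutation p = 0.333 over 924 arrangements, whose smallest possible p is 0.00216). In the other groups, which the interaction also uses, the slope was 0.18 ± 0.15 with sarcosine and -0.23 ± 0.096 with vehicle (SD, n = 6 each). After removing a length and GC trend from each library, the interaction called 0 genes, and combination minus memantine 15, 12 higher and 3 lower. It also called 0 without combination replicate 1 or 4, without memantine replicate 3 or 4, and without the libraries high in Ttr. Without combination replicate 6 it called 983 and without memantine replicate 6 51. Without combination replicate 2 or 3 it called 162 and 150, and without memantine replicate 1 or 2 163 and 135. Every interaction call named above is therefore lost under at least 4 of these omissions.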

How the data were processed

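The members and gene lists were chosen with earlier results of these data known. RNA of frontal cortex was made into libraries with an NEBNext kit and sequenced, per the labels' protocols. FastQC, STAR, featureCounts 1.6.0, DESeq2 1.42.1 and the mouse build mm39 are named in the tool and build fields, per the submitters' processing notes. The authors deposited 1 table of normalised counts, a signal in which each read count is divided by its library's size factor. In every library 100% of values were whole multiples of 1 step within a tolerance of 0.01, which gave back whole reads, 12678114 to 21844579 per library over the 4 groups. All columns were mapped to samples by name, and no 2 libraries of a group were duplicates (a chi-square of the reads per degree of freedom of at least 5.79). A blank symbol stood at 525 genes, which were kept by identifier.

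Values were tested as log2(value + 1) with limma 3.58.1 (R 4.3.3), with a mean per group over all 24 libraries and a trended variance, on genes at 10 or more in at least 6 libraries, with Benjamini-Hochberg adjustment over all of them. A gene is called at an adjusted p under 0.05. The fit was tested on simulated data. The rule for naming genes asked for a mean of at least 50 over the 12 libraries and a name that is not a predicted gene. It took called genes filled up to 8 in each direction by smallest p, up to 4 members of each list by smallest p, up to 5 interaction and sarcosine-minus-vehicle genes in each direction, and 7 drug-target genes. Cirbp, Rbm3, Chordc1, Pdia3 and Psmb9 were added after their values were seen. Further genes are given outside the rule, among them Hspa5, Manf, Dnaja1, Nlrc5, Tap2, Socs3, Steap4 and Cd14. Count tests on recovered reads used edgeR 4.0.16, which called 10 genes, and DESeq2 1.42.0, which called 61. Other alternatives were pseudocounts of 0.5 and 5, a minimum of 50 and no filter, upper-quartile and TMM scaling, a fit of the 12 libraries alone, library weights, marker scores as covariates, length and GC correction (16287 genes matched, 98.2%), the replicate number as a block, and leaving out each library. Leaving out the libraries over 1000 in Ttr or Cdhr1 was added after the data were seen, as were list medians under each alternative. Promoters come from RefSeq. No annotation of mm39 was used.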

Additional observations from a re-analysis of the deposited data

Results flagged for a closer look

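In 17 of 204 groups (102 named genes, combination and memantine, 8.33%), 1 library stood apart from the other 5 by a gap of over 0.625 of the group's range, where chance alone marks about 1 in 20 groups. Memantine replicate 3 was such a library for Acer2 (135 normalised counts, next library 114), Sfpq (4392), Osmr (141), Fkbp5 (1493), Map3k6 (162) and Gnmt (23.7), always as the highest. Combination replicate 1 was highest for H2-Q4 (359.7, next 227), Tap1 (232, next 147) and Gkn3 (40.1). Combination replicate 6 was highest for Pdia6 (2825, next 2053), Cry1 (573) and Shank3 (4675), and combination replicate 3 for Srsf5 (5031). Of the other memantine libraries, replicate 6 was highest for Hspa1a (246) and lowest for 1700096K18Rik (15.3), replicate 5 was highest for C1qc (1069) and replicate 4 for Gbp5 (90.1).

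In the main fit 21 named genes had a limma interaction at an adjusted p under 0.05. The interaction called 0 genes after length and GC correction, with no filter on low values and without the libraries high in Ttr. It also called 0 without combination replicate 1 or 4 and without memantine replicate 3 or 4. In the main fit the interaction was positive for 1700096K18Rik (1.07), Znhit2 (0.73), Uqcc3 (0.65), Chrac1 (0.63), Trem2 (0.63), Fcer1g (0.60), C1qc (0.43), Rpl10a (0.42), Rps7 (0.42) and Rpl22 (0.40). It was negative for Sik2 (-1.23), Per2 (-1.19), Slc9a7 (-1.16), Klf12 (-1.09), Aff2 (-1.09), Shank3 (-0.60), Per3 (-0.58), Kmt2c (-0.57), Hspa4l (-0.52), Nr1d2 (-0.48) and Sfpq (-0.43).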

How the results depend on the processing

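The count of genes called in combination minus memantine was 4 with no filter on low values, 5 with a minimum of 50, 4 in a fit of the 12 libraries alone, 61 with DESeq2 on recovered reads (39 higher and 22 lower), 30 with library weights (23 and 7), 19 with marker scores as covariates (16 and 3) and 15 after length and GC correction (12 and 3). The other settings kept it within 1.5 times, and leaving out each library in turn gave 3 to 51. The interaction count was 0 with no filter, 451 with a minimum of 50, 475 with upper-quartile scaling, 935 with DESeq2, 1516 with library weights, 614 with marker scores, 0 after length and GC correction and 0 without the libraries high in Ttr. Leaving out each library in turn gave 0 to 983. The causes of these shifts were not tested.

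The replicate numbers did not pair the libraries by their values over all tested genes. Deviations of same-numbered combination and memantine libraries correlated between -0.448 and 0.612, and replicate 5 alone correlated best with its own number. Such deviations also hold the tissue differences between libraries, so a pairing by processing was not tested. With the replicate block, 8 genes were called in combination minus memantine and 131 in the interaction. Of those 8, 7 are among the 9 called without it, and Plek (adjusted p = 0.0878) and Tgtp2 (adjusted p = 0.0716) were not called.

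The median fold change of all tested genes was 0.026 under upper-quartile scaling and -0.017 under TMM scaling. Called genes kept their sign under every alternative run. The named genes whose sign turned were near 0. Slc9a7 was at 0.0029 with edgeR and 0.0073 without the libraries high in Ttr, Hs6st3 at -0.022 with library weights, -0.0091 after length and GC correction and -0.0078 without the libraries high in Cdhr1, and Cox6a2 at -0.022 without those high in Ttr. With marker scores as covariates Kcnh5 was at 0.36, Gucy1a2 at 0.058, Gng13 at 0.020, Grin1 at 0.048, Grin2a at 0.091, Slc6a9 at 0.045 and Grin3a at -0.052. Cort was at -0.0044 with TMM scaling, -0.045 with edgeR, -0.048 with DESeq2, -0.17 with library weights, -0.060 after length and GC correction, -0.24 without the libraries high in Ttr and -0.076 without those high in Cdhr1. Gng13 was at 0.087 without those high in Cdhr1, Slc6a9 at 0.036 with library weights and 0.098 without those high in Ttr, and Grin1 at 0.0097 with upper-quartile scaling. Gnmt was at -0.020 with edgeR, -0.026 with DESeq2 and -0.18 without those high in Cdhr1. Over the fits without 1 library the values ran from -0.14 to 0.083 for Slc9a7, -0.13 to 0.15 for Hs6st3, -0.32 to 0.070 for Kcnh5, -0.21 to 0.074 for Gucy1a2, -0.14 to 0.13 for Cort, -0.0064 to 0.20 for Cox6a2, -0.19 to 0.000337 for Gng13, -0.21 to 0.019 for Nppc, -0.17 to 0.066 for Slc6a9, -0.066 to 0.027 for Grin1, -0.24 to 0.0090 for Grin2a and -0.062 to 0.39 for Gnmt. Genes under about 50 normalised counts, such as H2-Q5, H2-Q6, H2-Q7 and Gnmt, rest on few reads per library.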

Other observations

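Among the 10 genes with the widest called differences of sarcosine from vehicle, 5 in each direction, Gbp4 was called with memantine present as well (1.49) and the other 9 were not. The heparan sulfate sulfotransferase gene Hs6st3 was at 0.02 in combination minus memantine, beside 1.25 in sarcosine minus vehicle. The potassium channel gene Kcnh5 was at -0.12 beside 1.24, and the guanylate cyclase subunit gene Gucy1a2 at -0.05 beside 1.23. Among those lower with sarcosine, the neuropeptide gene Cort was at 0.01 beside -1.20, the muscle-type cytochrome oxidase subunit gene Cox6a2 at 0.09 beside -0.77, the G protein subunit gene Gng13 at -0.10 beside -0.73 and the natriuretic peptide gene Nppc at -0.08 beside -0.70. The sodium-proton exchanger gene Slc9a7 was at -0.03 beside 1.12, and the transcription factor gene Prdm8 at -0.32 beside -0.82. The rule for these 10 leaves out H2-Q7 and Tgtp2, whose values in both contrasts were high as well.

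Immune receptor genes outside the lists had values near the threshold, picked out after they were seen. Csf2rb2, a cytokine receptor chain, had 25.4, 34.8 and 42.3 normalised counts with the combination and 9.49, 13.8 and 19.3 with memantine, groups that did not overlap (1.24, limma adjusted p = 0.0722). Casp4, an inflammatory caspase gene, had 7.72, 16.1 and 28.1 with the combination and 3.79, 5.32 and 7.02 with memantine, also apart (1.48, adjusted p = 0.120). No memantine library of Casp4 reached the filter minimum of 10 normalised counts, so it was tested only because of libraries in the other groups. Its mean was 7.01 with sarcosine and 7.61 with vehicle, both under that minimum, so the separation of Casp4 is weak support. Of the cell type lists not described so far, olfactory bulb markers had 2 of 17 positive with a median of -0.24, smooth muscle markers 1 of 16 with -0.25, and cortical excitatory neuron markers 4 of 19 with -0.071, with no member called.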
